A study of Mus musculus with 87 samples.

Results

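Among the Ensembl gene IDs with many reads in wild-type (WT) mouse embryonic stem cells, 69 lost at least a fraction of 0.5 of their level when Suz12 was knocked out. These 69 IDs, called members here, were chosen from RNA sequencing counts. The level of an ID is given in CPM, its count divided by the library's total gene count and multiplied by 1000000. A member had a mean of at least 50 CPM over the 3 WT libraries, and a mean over the 3 Suz12 KO libraries of at most 0.5 times that. Of 55450 IDs, 4412 reached the WT minimum, and the members were 1.56% of these. For comparison, 26 IDs at the WT minimum had at least doubled in Suz12 KO. CPM are not corrected for length, so a level is compared here only between samples of the same ID.

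The genotypes were Suz12 KO, Pcl1-3 + Jarid2 + Aebp2 + Epop KO (the combined knockout, which lacks all 6 non-core subunits targeted), Pcl1-3 + Jarid2 + Aebp2 KO, Pcl1-3 + Jarid2 KO, Pcl1-3 + Epop KO, Pcl1-3 KO, Jarid2 + Aebp2 KO and WT. Each of the 8 had 3 RNA libraries, 24 in all, from cells grown in 2i medium. The 63 immunoprecipitation samples of the series are not analysed here. The labels do not say whether a genotype was 1 clone or whether its libraries came from separate cultures, and a p-value here covers the spread of these libraries alone, part of which may be technical. The strain label also changes with the genotype, in that its last digit rises by 1. Whether this marks different strains is not stated, and label and genotype cannot be told apart.

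SUZ12 is a core subunit of Polycomb repressive complex 2 (PRC2), which methylates lysine 27 of histone H3 and is known for keeping developmental genes silent in embryonic stem cells. Around the core bind the non-core subunits. The 3 PCL proteins and EPOP belong to one form of the complex, and JARID2 and AEBP2 belong to the other. PRC2 acts as a repressor, so its targets are known mainly as genes that rise when it is lost.

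None of the 55450 IDs could be paired with a gene symbol, because the files give IDs only and the gene table used lists no Ensembl ID for any gene. The members are therefore described by level and pattern, and 4 of them are printed by ID. Their functions, the level of the deleted genes in their knockouts, the markers of stem cells and of other cell types, and the nearness of members to PRC2 peaks were not analysed here. Library totals ran from 10148155 to 28442061 counts. The lowest count of any member in any library was 39 and the highest 81985.

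The values that chose the members are a description and carry no test. The members' mean level in WT had a median of 118 CPM and ran from 52.4 to 3139 CPM, with 28 members under 100 CPM, 36 from 100 to under 500 CPM and 5 at 500 CPM or more. The ratio of the Suz12 KO mean to the WT mean had a median of 0.427 and ran from 0.0703 to 0.499. It was under 0.25 for 7 members, from 0.25 to under 0.4 for 21, and 0.4 or more for 41. Most members thus lay near the limit. The 3 members closest to it had ratios of 0.495, 0.498 and 0.499, and the 3 nearest IDs beyond it reached 0.503. At the WT minimum, the closest members had means of 52.4, 54.1 and 55.5 CPM, and the nearest IDs below it had 45.2, 49.5 and 49.9 CPM.

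In 66 members every Suz12 KO library lay below every WT library. The background is large, since 30.6% of the IDs at the WT minimum showed the same separation, and the rule used this contrast. In 22 members the highest Suz12 KO library was at most 0.5 times the lowest WT library. Scaling with edgeR's TMM factors moved the median log2 ratio between Suz12 KO and WT by -0.13 over the tested IDs at the WT minimum. With TMM-scaled CPM the rule gave 108 IDs, all 69 members among them. These are bulk samples, in which fewer cells of a type and less RNA per cell cannot be told apart.

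The other 3 members overlapped between Suz12 KO and WT, and WT replicate 1 carried all of them. One had 912, 806 and 728 CPM in the Suz12 KO libraries, against 7771, 708 and 938 CPM in the WT libraries. A second had 240, 168 and 163 CPM in Suz12 KO, against 831, 223 and 253 CPM in WT. The third was ENSMUSG00000065922.1, which had the lowest ratio of all members, at 44.5, 12.3 and 14.5 CPM in Suz12 KO, against 977, 15.4 and 22.6 CPM in WT. WT replicates 2 and 3 of this ID were as low as the Suz12 KO libraries. The combined knockout had 424, 26.4 and 57.2 CPM of it, and Pcl1-3 + Epop KO had 286, 25.4 and 118 CPM, so single libraries of other genotypes stood high as well. Of the 4412 IDs at the WT minimum, 9 were more than 2-fold higher in WT replicate 1 than in both other WT libraries, and these 3 members were among them. Without WT replicate 1 the rule gave 77 IDs, of which 61 were members. The 3 are kept in the counts of 69 and left out wherever 66 members are named.

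**Figure D1:**
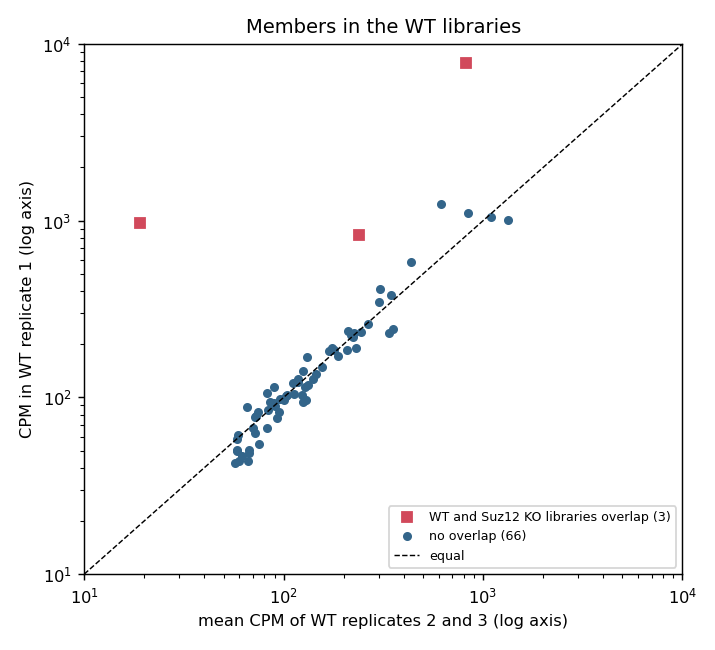
CPM of the 69 members in WT replicate 1 (vertical, log axis) against their mean CPM in WT replicates 2 and 3 (horizontal, log axis), with the line of equal values dashed. The 66 members without overlap (circles) lie along the line, and the 3 members whose WT and Suz12 KO libraries overlap (squares) lie above it, the highest at 7771 CPM in WT replicate 1.

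ENSMUSG00000017548.15 had the lowest ratio among the 66. Whether this ID is the deleted Suz12 gene itself cannot be read from the files and was not tested. Its loss is therefore not read as a response to the knockout, although the ID stays in all counts of members. It had 30.0, 41.7 and 38.2 CPM in the Suz12 KO libraries, against 380, 340 and 355 CPM in the WT libraries, a ratio of 0.102. No non-core knockout was low. It had 633, 553 and 313 CPM in the combined knockout, 487, 498 and 515 CPM in Pcl1-3 + Jarid2 + Aebp2 KO, and 524, 549 and 492 CPM in Pcl1-3 + Jarid2 KO. In the combined knockout 1 library lay below the WT libraries and the other 2 lay above them, and in both other genotypes all 3 libraries lay above. Its means were 399 ± 18.9 CPM in Pcl1-3 + Epop KO, 388 ± 18.8 CPM in Pcl1-3 KO, 390 ± 4.30 CPM in Jarid2 + Aebp2 KO and 358 ± 20.3 CPM in WT (SD, n = 3 each). Against WT its log2 fold change was 0.50 ± 0.16 (SE) in the combined knockout (edgeR adjusted p = 0.0185), 0.48 ± 0.16 in Pcl1-3 + Jarid2 + Aebp2 KO (adjusted p = 0.0417) and 0.51 ± 0.16 in Pcl1-3 + Jarid2 KO (adjusted p = 0.0268). The first of these calls was lost, at log2 fold changes of 0.27 to 0.49, without replicate 1 or 2 of the combined knockout or without replicate 2 or 3 of WT, and also at 0.50 when only the genotypes compared were fitted.

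Across the non-core knockouts, the members were low mainly in the combined one. Their summed level, over the 66, was 5075, 5063 and 5029 CPM in the Suz12 KO libraries and 8793, 8594 and 8022 CPM in the combined knockout libraries, against 13061, 12435 and 12774 CPM in the WT libraries. Suz12 KO is low and WT high here by the choice of members, so only the place of the other genotypes was free. The combined knockout libraries lay between those of Suz12 KO and WT and overlapped neither. The other knockouts ran from 11187 to 12180 CPM in Pcl1-3 + Jarid2 + Aebp2 KO, from 11029 to 11556 CPM in Pcl1-3 + Jarid2 KO, from 11714 to 12318 CPM in Pcl1-3 + Epop KO, from 11590 to 12915 CPM in Pcl1-3 KO and from 12848 to 14724 CPM in Jarid2 + Aebp2 KO. Each of the first 3 lay below WT, and the last 2 overlapped it. In this sum, members with many reads weigh most.

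Weighted equally, each library's median of CPM over the mean WT CPM gave the same order at the low end. It was 0.413 to 0.435 in the Suz12 KO libraries, 0.597 to 0.634 in the combined knockout, 0.851 to 0.913 in Pcl1-3 + Jarid2 + Aebp2 KO, 0.848 to 0.924 in Pcl1-3 + Jarid2 KO, 0.799 to 0.978 in Pcl1-3 + Epop KO, 0.892 to 0.974 in Pcl1-3 KO, 0.984 to 1.07 in Jarid2 + Aebp2 KO and 0.994 to 1.02 in WT. The 4 knockouts of Pcl1-3 other than the combined one overlapped each other, and Jarid2 + Aebp2 KO overlapped WT. The members also varied more between libraries of a genotype than other IDs did. Their coefficient of variation within the 6 non-core knockouts had a median of 15.3%, with a range of 4.68% to 90.7%, while that of the other IDs at the WT minimum was 9.37%.

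**Figure D2:**
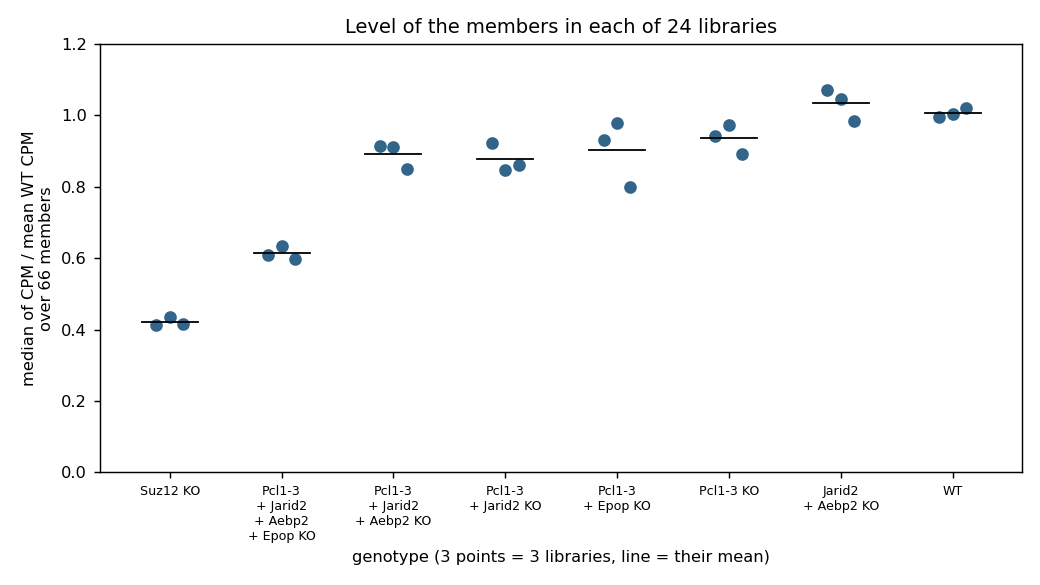
Median over 66 members of CPM divided by the mean WT CPM (vertical, starting at 0), for each of 24 libraries by genotype (horizontal); points are libraries and lines the mean of 3. The Suz12 KO libraries sit between 0.413 and 0.435 and the combined knockout libraries between 0.597 and 0.634, below all others.

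The combined knockout was compared with WT to ask how far losing the 6 subunits lowers the members. Of the 69, 39 fell and 5 rose (edgeR quasi-likelihood, adjusted p under 0.05), where 15.8% of all 14650 IDs tested fell and 17.1% rose. Among the IDs at the WT minimum, 17.3% fell and 13.2% rose. The members' median log2 fold change was -0.65, and that of all IDs was 0.0023. In 45 members every library of this knockout lay below every WT library, against a background of 29.9% at the WT minimum. The mean was at most 0.5 of the WT mean in 21 members, where the background was 1.93%, between that and WT in 37, and at or above WT in 11. The WT libraries are those that chose the members, so a low ratio here is not independent of the rule. Without WT replicate 1, 36 members fell and 4 rose, where 11.5% and 12.2% of all IDs did. For fits without any other library, here and below, the share of all IDs is not given. The 5 that rose became 2 without replicate 2 of the combined knockout and 3 without WT replicate 2.

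The member with the lowest level relative to WT in the combined knockout had 7.51, 5.76 and 3.07 CPM there, against 58.4, 66.2 and 50.1 CPM in WT, a ratio of 0.0936. Its log2 fold change was -3.40 ± 0.32 (SE; edgeR adjusted p = 8.24e-08). Its Suz12 KO libraries had 6.04, 8.35 and 7.58 CPM. The libraries of the combined knockout and Suz12 KO overlapped for this member. By mean, 15 of the 66 were lowest of all 8 genotypes in the combined knockout and 48 in Suz12 KO. The choice of members for low Suz12 KO values favours the second count. Shares over other IDs are not given for these counts or the next. For the other IDs at the WT minimum, the median ratio to WT was 0.955 in the combined knockout and 0.976 in Suz12 KO. In 17 of the 66 members the mean was lower in the combined knockout than in Suz12 KO. One of them had 82.8, 80.7 and 86.5 CPM in the combined knockout and 160, 175 and 278 CPM in Suz12 KO, against 583, 428 and 439 CPM in WT, and these 3 genotypes did not overlap.

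**Figure D3:**
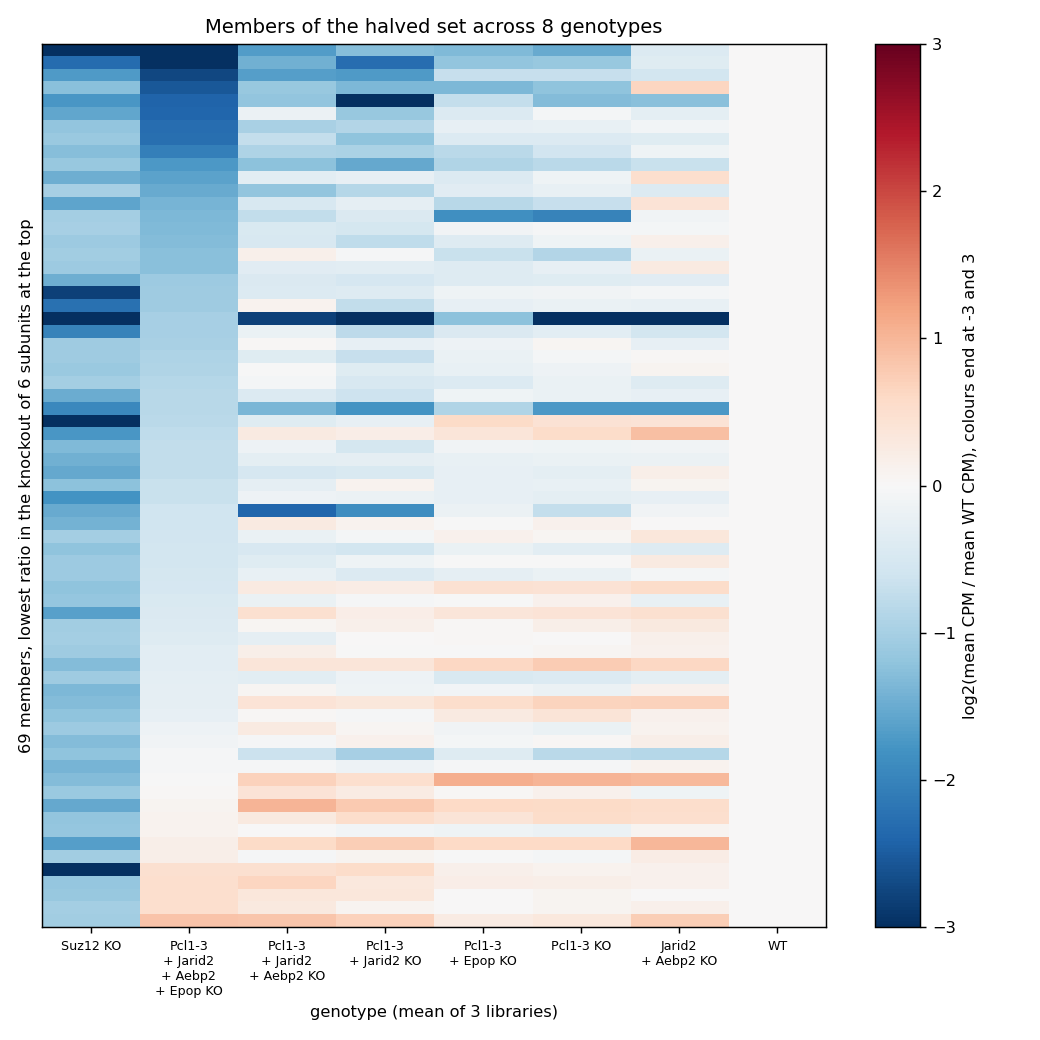
Log2 of the mean CPM over the mean WT CPM (colour, ending at -3 and 3) for the 69 members (rows, ordered by their ratio in the combined knockout) in 8 genotypes (columns, means of 3 libraries). The Suz12 KO column is low by the choice of members; the combined knockout column runs from a ratio of 0.0936 at the top to 1.82 at the bottom, and the remaining columns are mostly near 0.

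In the smaller knockouts fewer members fell. These comparisons share the WT libraries with the rule and with each other. In Pcl1-3 + Jarid2 KO 19 members fell and 5 rose, where 7.91% and 9.26% of all IDs tested did (7.46% and 6.46% at the WT minimum). In Pcl1-3 + Jarid2 + Aebp2 KO 11 fell and 6 rose, where 7.08% and 7.95% of all IDs did (4.58% and 7.18% at the WT minimum). Of the rises, those in Pcl1-3 + Jarid2 KO were down to 1 without WT replicate 1 and to 3 without WT replicate 2 or without replicate 2 or 3 of that knockout, and those in Pcl1-3 + Jarid2 + Aebp2 KO were down to 3 without WT replicate 1.

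In Pcl1-3 KO 8 members fell and 3 rose, where 4.35% of all IDs tested fell and 4.35% rose (2.61% and 3.24% at the WT minimum). A block for the replicate number gave 13 and 8, where it called 9.40% and 10.4% of all IDs. Without replicate 3 of Pcl1-3 KO 5 fell and 0 rose. The rises were 1 without replicate 1 of Pcl1-3 KO and 1 without WT replicate 2. They were 0 without WT replicate 1, where 1.21% of all IDs rose. In Pcl1-3 + Epop KO 7 fell and 1 rose, where 3.67% and 3.94% of all IDs did (2.52% and 2.63% at the WT minimum). That rise became 7 without replicate 1 of Pcl1-3 + Epop KO, 2 without its replicate 2, and 0 without its replicate 3 or without WT replicate 1. In the fit without WT replicate 1, 1.17% of all IDs rose.

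In Jarid2 + Aebp2 KO 1 member fell and 3 rose, near the background of 2.13% and 2.26% of all IDs (2.11% and 1.99% at the WT minimum). Under that block 6 fell and 13 rose, where 7.09% and 8.48% of all IDs did. The fall was lost without replicate 3 of this knockout or without WT replicate 1 or 3, and was 2 without its replicate 2. The rises were 5 without its replicate 2, and 1 without its replicate 1 or 3 or without WT replicate 1 or 2. In the fit without WT replicate 1, 0.364% of all IDs fell and 0.265% rose. The member that fell had 164, 145 and 124 CPM in Jarid2 + Aebp2 KO, against 232, 204 and 247 CPM in WT, a log2 fold change of -0.68 ± 0.17 (SE; edgeR adjusted p = 0.0291). It was lower still in the combined knockout, at 62.1, 68.4 and 75.4 CPM, and at 110, 98.9 and 104 CPM in Suz12 KO.

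At the level of 0.5 of WT or less, the counts out of 69 members were 12 in Pcl1-3 + Jarid2 KO, 10 in Pcl1-3 + Jarid2 + Aebp2 KO, 7 in Pcl1-3 KO, 5 in Pcl1-3 + Epop KO and 3 in Jarid2 + Aebp2 KO. The background at the WT minimum was 0.884%, 0.657%, 0.431%, 0.363% and 0.249% in that order. Over the 66 members whose Suz12 KO and WT libraries did not overlap, the counts were 9, 8, 5, 4 and 1. Set against the mean of WT replicates 2 and 3 alone, they were 9, 6, 3, 4 and 0 of 69. The 3 overlapping members then had ratios of 1.00 to 1.85 in Jarid2 + Aebp2 KO. Of the 66 members, 44 were at 0.5 of WT or less in none of the 6 non-core knockouts, and 0 were in all 6. In 3 of the 66 the ratio was at most 0.457 in all 5 Pcl1-3 knockouts, while in Jarid2 + Aebp2 KO it ran from 0.755 to 1.56. The last value belongs to the member given above with 82.8, 80.7 and 86.5 CPM in the combined knockout. It had 786, 596 and 883 CPM in Jarid2 + Aebp2 KO and 274, 129 and 224 CPM in Pcl1-3 KO, against 583, 428 and 439 CPM in WT. Its fall in Pcl1-3 KO had a log2 fold change of -1.23 ± 0.25 (SE; edgeR adjusted p = 0.00414).

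The fold changes between 2 non-core knockouts use neither the Suz12 KO nor the WT libraries that chose the members. The spread behind their tests was estimated over all 24 libraries, those of the rule included, and the counts from a fit of only the genotypes compared are therefore given too. Loss of Jarid2 on top of Pcl1-3 lowered 8 members and raised 1, where 2.56% and 3.71% of all IDs fell and rose (2.31% and 2.06% at the WT minimum). The members' median log2 fold change was -0.16, against -0.0048 for all IDs. A block for the replicate number gave 15 falls and 3 rises, where 5.94% and 7.37% of all IDs fell and rose. The 8 became 3 without replicate 2 of Pcl1-3 + Jarid2 KO, 2 without its replicate 3, 4 without replicate 1 of Pcl1-3 KO, and 5 without its replicate 2 or 3. With only the genotypes compared 8 fell and 3 rose. The single rise in the fit of all libraries was lost without replicate 1 or 2 of Pcl1-3 + Jarid2 KO and without replicate 1 or 3 of Pcl1-3 KO.

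The member with the lowest adjusted p in this step had 77.7, 78.3 and 67.1 CPM in Pcl1-3 + Jarid2 KO, against 153, 157 and 140 CPM in Pcl1-3 KO. The libraries did not overlap, and the log2 fold change was -1.02 ± 0.17 (SE; edgeR adjusted p = 0.000534). The same member had 25.1, 40.1 and 44.2 CPM in the combined knockout, below the 87.2, 84.0 and 59.6 CPM in Pcl1-3 + Jarid2 + Aebp2 KO, and 234, 246 and 242 CPM in WT. The member that rose with Jarid2 loss had 321, 263 and 177 CPM in Pcl1-3 + Jarid2 KO, against 86.0, 112 and 57.9 CPM in Pcl1-3 KO (log2 fold change 1.56 ± 0.42, SE; edgeR adjusted p = 0.0268).

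Adding the loss of Aebp2 to that of Pcl1-3 and Jarid2 changed no member past the test in either direction with edgeR. At an unadjusted p under 0.05 the counts were 1 lower and 10 higher. The share of all IDs at that threshold is not given, so these counts are not read as a direction. DESeq2 called 0 lower and 2 higher, where it called 1.04% and 0.608% of all IDs. The fit of only the genotypes compared called 0 in each direction. Under the block 0 fell and 5 rose, where 1.82% and 1.13% of all IDs did. Of all IDs, 0.560% fell and 0.341% rose (0.136% and 0.385% at the WT minimum). Adding the loss of Pcl1-3 to that of Jarid2 and Aebp2 lowered 15 members and raised 3, where 6.83% and 6.87% of all IDs fell and rose (4.90% and 6.96% at the WT minimum), with a median log2 fold change of -0.17 for the members and -0.0097 for all IDs. With only the genotypes compared 11 fell and 3 rose. The 3 became 6 with the block, where 11.8% of all IDs rose, and 1 without replicate 2 of Pcl1-3 + Jarid2 + Aebp2 KO or without replicate 3 of Jarid2 + Aebp2 KO.

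The step to the combined knockout, which adds the loss of Epop to Pcl1-3 + Jarid2 + Aebp2 KO, lowered more members than any other step tested. It lowered 27 members and raised 1, where 5.45% and 5.79% of all IDs fell and rose. At the WT minimum 6.35% fell and 2.31% rose. The members' median log2 fold change was -0.49, with 57 of 69 below 0, and the median over all IDs was 0.00091. In 40 members every library of the combined knockout lay below every library of Pcl1-3 + Jarid2 + Aebp2 KO, where 14.4% of all IDs tested and 16.1% at the WT minimum did. In 2 members every library lay above, where 12.1% of all IDs and 5.98% at the WT minimum did. The ratio of the means had a median of 0.703 over the members and 0.967 over the other IDs at the WT minimum, and 14 members were at 0.5 or less, where 0.884% of the IDs at the WT minimum were. Leaving out any 1 library of either genotype gave 22 to 29 members lower, and fitting only the genotypes compared gave 23 lower and 2 higher. With a block for the replicate number 40 fell and 1 rose, where 10.4% of all IDs fell and 10.4% rose.

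The member with the lowest adjusted p in this step had 57.6, 63.9 and 56.3 CPM in the combined knockout, against 109, 106 and 113 CPM in Pcl1-3 + Jarid2 + Aebp2 KO. Its log2 fold change was -0.86 ± 0.093 (SE; edgeR adjusted p = 2.46e-06), larger than the spread between replicates. Its other values were 46.3, 48.8 and 57.0 CPM in Suz12 KO and 105, 114 and 113 CPM in WT. The member with the largest fall in this step had 16.4 to 20.7 CPM in the combined knockout, against 62.6 to 119 CPM in Pcl1-3 + Jarid2 + Aebp2 KO, a log2 fold change of -2.19 ± 0.32 (SE; edgeR adjusted p = 0.000103). The 1 member that rose had 26.5, 44.3 and 45.9 CPM, against 14.7, 10.7 and 8.41 CPM, with a log2 fold change of 1.80 ± 0.34 (SE; edgeR adjusted p = 0.00115). That member had been lowered by the step that adds Jarid2 loss, to 19.8, 17.0 and 11.5 CPM in Pcl1-3 + Jarid2 KO, against 27.1, 46.7 and 34.0 CPM in Pcl1-3 KO (log2 fold change -1.17 ± 0.33, SE; edgeR adjusted p = 0.0358).

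The Jarid2 and Epop steps share no library. Of the 8 members lowered by the first, 5 were also lowered by the second, which is 62.5% of the 8 and 18.5% of the 27. Over all IDs tested, 109 were lowered by both steps, 29.1% of the 375 lowered by the first and 13.6% of the 799 lowered by the second. Among the IDs at the WT minimum that are no members, 41 were, 43.6% of 94 and 16.2% of 253. Over the 27, the ratio of Pcl1-3 + Jarid2 KO to Pcl1-3 KO ran from 0.472 to 1.81 with a median of 0.869. Members that fell with the loss of Epop were thus on both sides of 1 in the Jarid2 step, mostly below it.

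In the background of Pcl1-3 loss alone, the loss of Epop moved almost no ID past the test, members included. Pcl1-3 + Epop KO against Pcl1-3 KO gave 0 members past the test in each direction with edgeR, 0 at an unadjusted p under 0.05 and 0 with DESeq2, where 0.00% of all IDs fell and 0.00683% rose. With no filter on low counts 3 members rose. The ratio of the means had a median of 0.980 over the 69 and a highest value of 5.26, that of ENSMUSG00000065922.1, and every library of Pcl1-3 + Epop KO lay below every library of Pcl1-3 KO in 2 members and above in 0, where 1.65% and 1.25% at the WT minimum did. Over the 27 members that fell in the combined step, this ratio ran from 0.786 to 1.17 with a median of 0.934, against 0.217 to 0.760 with a median of 0.525 in that step. Among the other IDs at the WT minimum, the lowest ratio was 0.572 here and 0 in the combined step. No ID was paired with a symbol, so Epop RNA itself could not be read in either step. Of the 14650 IDs tested with edgeR, 0 fell over Pcl1-3 KO (2 with DESeq2, 1 with a block for the replicate number). If Epop was among the IDs tested, its RNA therefore had no called fall there with edgeR.

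The difference between the effects of Epop loss in the 2 backgrounds was tested itself, a test added when earlier results of these data were known. It was past the threshold for 11 members, all with a lower effect in the combined step, and for 0 in the other direction. At an unadjusted p under 0.05 the counts were 27 and 1, for which the share of all IDs is not given. At the adjusted threshold 1.07% and 1.02% of all IDs were called (1.02% and 0.295% at the WT minimum). The members' median difference was -0.49 on the log2 scale. The count of 11 depended on the fit. It was 18 with the replicate number as a block (3.07% of all IDs). It was 13 with DESeq2 (1.70% of all IDs) and 1 when only the genotypes compared were fitted. It was 7 without replicate 2 of the combined knockout, 5 and 7 without replicates 1 and 2 of Pcl1-3 + Jarid2 + Aebp2 KO, and 7 and 6 without replicates 2 and 3 of Pcl1-3 KO.

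**Figure D4:**
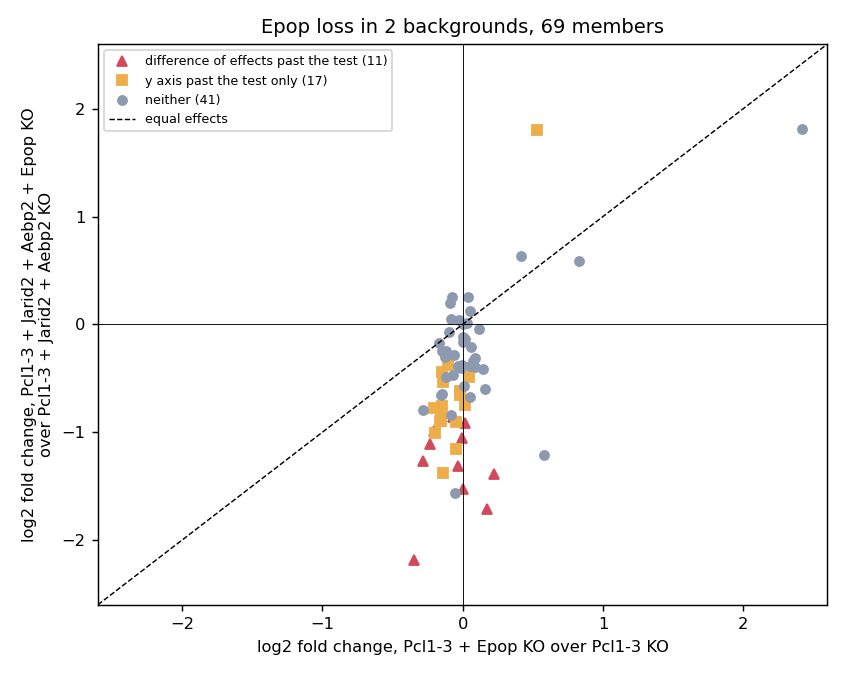
Log2 fold change of the 69 members with the loss of Epop in the combined knockout over Pcl1-3 + Jarid2 + Aebp2 KO (vertical) and in Pcl1-3 + Epop KO over Pcl1-3 KO (horizontal), with the line of equal effects dashed. Most points lie below 0 on the vertical axis and near 0 on the horizontal one; triangles mark the 11 members whose difference was past the test and squares the other 17 past it on the vertical axis only.

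The 2 members with the highest level in the combined knockout relative to WT were picked after their values were seen. ENSMUSG00000047986.12 had 25.5, 33.7 and 30.1 CPM in Suz12 KO and 93.7, 115 and 125 CPM in the combined knockout, against 48.3, 63.0 and 71.8 CPM in WT. Every combined knockout library lay above WT, by a log2 fold change of 0.89 ± 0.17 (SE; edgeR adjusted p = 0.000433). It also rose in Pcl1-3 + Jarid2 + Aebp2 KO (0.83, adjusted p = 0.00186), Pcl1-3 + Jarid2 KO (0.66, adjusted p = 0.00994) and Jarid2 + Aebp2 KO (0.71, adjusted p = 0.0223). In Pcl1-3 + Epop KO and Pcl1-3 KO its means were 72.2 ± 13.3 and 75.9 ± 7.20 CPM (SD, n = 3 each), not past the test. ENSMUSG00000079197.10 had 31.2, 36.6 and 34.0 CPM in Suz12 KO and 86.3, 95.9 and 111 CPM in the combined knockout, against 62.7, 75.8 and 67.1 CPM in WT. Its log2 fold change in the combined knockout was 0.53 ± 0.12 (SE; edgeR adjusted p = 0.00155).

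Among the 66, the member with the most reads in WT shows a further pattern. It had 467, 548 and 599 CPM in Suz12 KO, 1683, 1712 and 1896 CPM in Pcl1-3 + Jarid2 KO and 1751, 1575 and 2077 CPM in Pcl1-3 KO, against 1010, 1288 and 1366 CPM in WT. The libraries of both non-core knockouts lay above WT, with log2 fold changes of 0.50 ± 0.16 (adjusted p = 0.0308) and 0.54 ± 0.16 (SE; edgeR adjusted p = 0.0336). In the combined knockout it had 1455, 1340 and 1116 CPM and overlapped WT. The highest mean of the 8 genotypes was in Jarid2 + Aebp2 KO for 20 of the 66 members and in WT for 24. It was in Pcl1-3 + Jarid2 + Aebp2 KO for 9 and in other genotypes for the rest. By the rule Suz12 KO could not be the highest. The shares over other IDs are not given, so these counts are not read as a trait of the members.

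**Figure D5:**
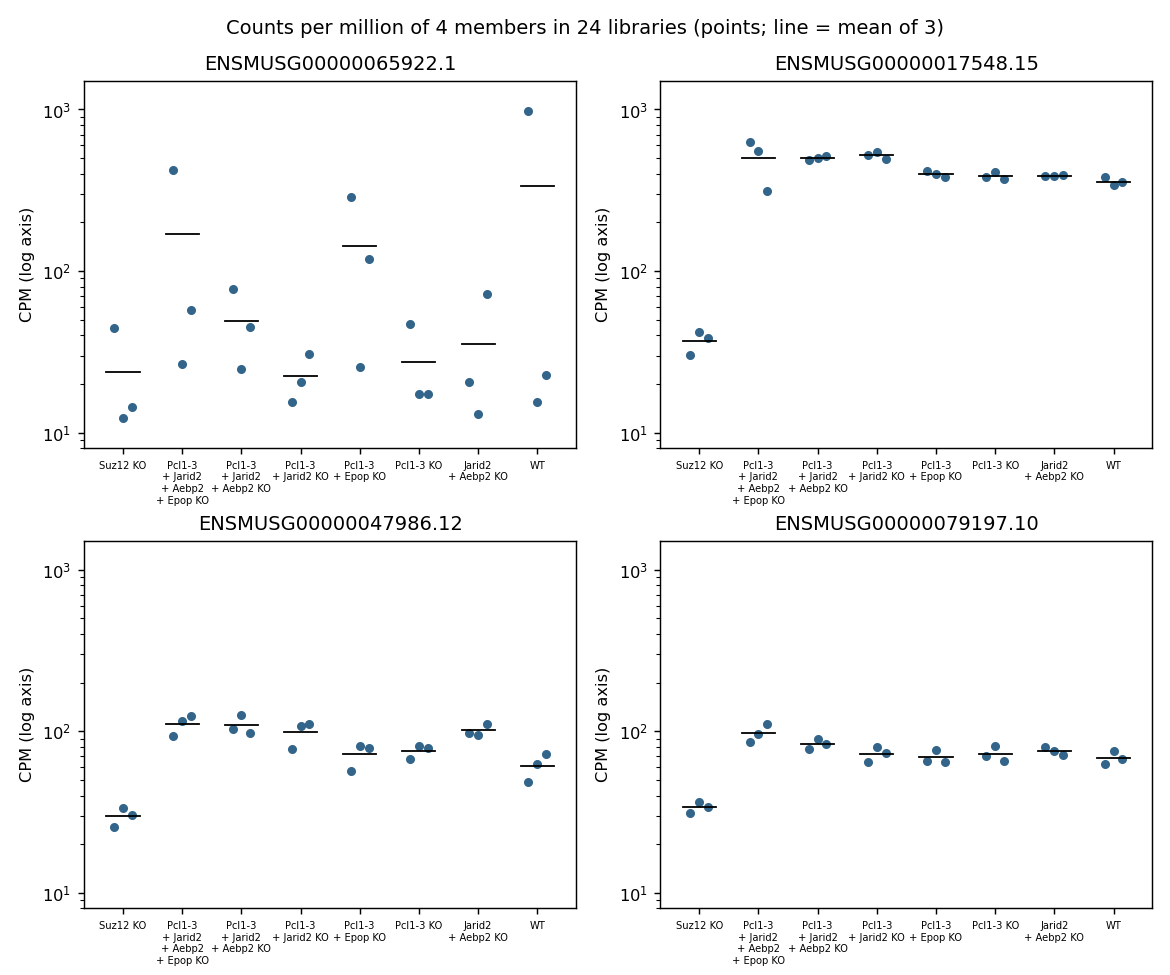
CPM (vertical, log axis) of the 4 members printed by ID in each of 24 libraries, by genotype (horizontal); points are libraries and lines the mean of 3. ENSMUSG00000065922.1 is spread widely within genotypes, up to 977 CPM in WT replicate 1, while in the other 3 IDs the Suz12 KO libraries lie below all WT libraries and the combined knockout does not share the fall. ENSMUSG00000047986.12 and ENSMUSG00000079197.10 were picked for their high level in the combined knockout. Of the 69 members, 39 fell and 5 rose there against WT.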

How the data were processed

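RNA was sequenced from mouse embryonic stem cells in 24 libraries. The authors deposited whole-number counts of reads per Ensembl ID. STAR, HTSeq and mm10 are listed, without versions, in the submitters' processing notes. Whether counting used strand is not stated in those notes, so antisense, overlapping and near-identical genes are uncertain. Of 55450 IDs, 24056 had no count, and 0 matched a symbol, so the rule for named genes, which asked for symbols, was reduced to 4 IDs: the lowest ratios of Suz12 KO to WT and the highest of the combined knockout to WT. It allowed 2; the others were chosen after their values were seen.

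CPM used each library's summed count. Counts were tested with edgeR 4.0.16 in R 4.3.3 on the 14650 IDs passing filterByExpr, all 69 members among them. They were TMM-scaled and fitted with 1 mean per genotype over 24 libraries, with robust quasi-likelihood tests and Benjamini-Hochberg adjustment over all IDs at 0.05. The script was tested on simulated data. DESeq2 1.42.0 was an alternative. Summaries used Python 3.11.15 with pandas 2.3.3.

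Members and lists were chosen with earlier results of these data known. Same-numbered libraries deviated together, at r over 0.1 for every pair (across IDs, log2 CPM with a pseudocount of 1), in 8 of 11 comparisons. The blocked count is therefore printed there where it differs by over 1.5 times, and also for the step to the combined knockout. The pairing comes from this check, since the labels give the numbers only.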

Additional observations from a re-analysis of the deposited data

Results flagged for a closer look

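The effect of losing Epop differed between the 2 backgrounds for 11 members by a test of the difference itself (edgeR quasi-likelihood), where 1.07% of all IDs differed in that direction. The differences, on the log2 scale, were -1.89, -1.84, -1.61, -1.53, -1.28, -1.05, -0.99, -0.93, -0.88, -0.79 and -0.78, with adjusted p from 0.0014 to 0.0319. The largest belonged to the member with the lowest level in the combined knockout, whose means were 5.45 ± 2.23 CPM there and 18.1 ± 3.29 CPM in Pcl1-3 + Jarid2 + Aebp2 KO (SD, n = 3 each). Its means were 23.1 CPM in Pcl1-3 + Epop KO and 20.3 CPM in Pcl1-3 KO. The lowest adjusted p belonged to a member at 59.3 ± 4.08 CPM in the combined knockout and 109 ± 3.47 CPM in Pcl1-3 + Jarid2 + Aebp2 KO (SD, n = 3 each), and at 94.7 CPM in Pcl1-3 + Epop KO and 98.8 CPM in Pcl1-3 KO. The test was chosen with these data known, and 1 member was called when only the 4 genotypes were fitted. Epop RNA itself was not analysed in either background. With edgeR 0 of the 14650 IDs tested fell in Pcl1-3 + Epop KO against Pcl1-3 KO. Any Epop ID among those tested thus had no called fall there.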

How the results depend on the processing

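Counts are of members that fell and rose. The set itself held 108 IDs with TMM-scaled CPM, 115 with a WT minimum of 25 CPM, 41 with one of 100 CPM, 28 at a ratio of at most 0.4, 164 at 0.6, 22 by the highest Suz12 KO and lowest WT library, and 68 to 77 without 1 library. Falls in the combined knockout against WT and against Pcl1-3 + Jarid2 + Aebp2 KO stayed within 1.5 times under every alternative run. Other counts moved further, and the cause was not tested. The share of all IDs called moved too, as given above for the replicate block and the fits without WT replicate 1.

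Against WT, Jarid2 + Aebp2 KO had 3 falls and 5 rises with DESeq2, 3 falls with DESeq2 size factors, 7 and 12 unfiltered for low counts, 4 and 6 with only the genotypes compared, 6 and 13 with the replicate block, and 0 to 2 and 1 to 5 without 1 library. Pcl1-3 KO had 15 and 9 with no filter, 13 and 8 with the block, 5 to 9 and 0 to 3 without 1 library, and 6 rises with members re-chosen on WT replicates 2 and 3. Pcl1-3 + Epop KO had 15 and 7 with no filter, 4 and 0 with only the genotypes compared, 19 and 3 with the block, 3 rises with DESeq2, 2 with re-chosen members and 0 to 7 without 1 library. Pcl1-3 + Jarid2 KO had 1 to 4 rises without 1 library. Pcl1-3 + Jarid2 + Aebp2 KO had 22 falls with no filter, 24 with the block and 3 to 4 rises without 1 library. The combined knockout had 8 rises with re-chosen members and 2 to 4 without 1 library.

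Between knockouts, adding Jarid2 loss gave 19 falls and 2 rises with no filter, 15 and 3 with the block, 2 to 9 and 0 to 1 without 1 library, 2 rises with DESeq2, 3 with only the genotypes compared and 0 with re-chosen members. Adding Aebp2 loss gave 2 rises with DESeq2, 7 with no filter and 5 with the block. Adding Epop loss gave 4 rises with no filter and 2 with only the genotypes compared in the combined step, and 3 with no filter over Pcl1-3 KO. Adding Pcl1-3 loss to Jarid2 + Aebp2 KO gave 6 rises with the block and 1 to 4 without 1 library. The difference of the Epop effects had 24 members lower and 1 higher with no filter, 1 lower with only the genotypes compared, 18 with the block and 5 to 13 without 1 library.

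In the combined knockout against WT, ENSMUSG00000065922.1 had a log2 fold change of -0.99, which ran from -3.02 without replicate 1 of that knockout to 3.18 without WT replicate 1. Same-numbered libraries did not all deviate together in Pcl1-3 + Epop KO, Pcl1-3 + Jarid2 + Aebp2 KO and the combined knockout against WT, so the block there is no paired result. The re-chosen members and the test of the difference were added with the data known. Nearness to peaks, under any distance or peak width, was not computed, since no ID could be placed on the genome.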
